A study of Mus musculus with 6 samples.

Results

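Kupffer cell markers were followed through RNA from preparations of the endothelial cells that line the liver's sinusoids, labelled LSECs. The set holds 10 genes, Vsig4, Timd4, Cd5l, Marco, C1qa, C1qb, C1qc, Cd163, Folr2 and Spic, chosen by symbol out of 34745 genes in the table. Each symbol matched a single row. The libraries labelled ECKO came from mice with an endothelial knockout of Tgfbr2, the type II TGF-beta receptor gene, and the controls were their Tgfbr2f/f littermates, which carry floxed alleles. Both groups had been injected intraperitoneally with the liver toxin carbon tetrachloride (CCl4) 2 times per week for 6 weeks, and each had 3 libraries, so no untreated liver serves as a baseline. The sources used here do not give the Cre driver, the age, sex or strain of the mice, or the way the LSECs were isolated. The comparison bears on how transcripts in LSEC preparations from CCl4-treated mice differ between these genotypes.

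Kupffer cells are the resident macrophages of the liver. They sit inside the sinusoids against the LSECs, clear microbes, complement-coated particles, dying cells and iron-bearing debris from portal blood, and depend on signals from neighbouring endothelial and stellate cells for their identity. After injury, macrophages derived from monocytes enter the same space and can take up parts of the Kupffer cell programme, with Timd4 commonly used as a marker of the long-lived resident cells. In bulk RNA such as this, fewer cells of a type and less RNA per cell cannot be told apart.

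Libraries labelled ECKO held 17171850 to 18671217 counts and Tgfbr2f/f libraries 17632271 to 25062755. Nothing in the labels ties a library to its own mouse, so p-values measure the spread between these libraries, which may be technical. With 3 libraries a side, an exact permutation test of a single value cannot reach a p under 0.1. Tgfbr2 averaged 499 ± 12.1 CPM (counts scaled to library size with TMM factors) in ECKO and 427 ± 35.1 CPM in Tgfbr2f/f libraries (SD, n = 3 each; log2 fold change 0.22, edgeR adjusted p = 0.228). Counts over a whole gene cannot show a deletion of some exons, so the genotype labels could not be checked. The share of counts from mitochondrial genes was 25.3 ± 6.47% in ECKO and 16.4 ± 6.33% in Tgfbr2f/f libraries (SD, n = 3 each; two-sided exact permutation p = 0.2). The 18 LSEC markers summed to 34141 to 41388 CPM in ECKO libraries and 32650 to 37844 CPM in Tgfbr2f/f libraries. The 10 Kupffer cell markers summed to 67.6, 58.4 and 75.2 CPM in ECKO libraries, against 45.5, 89.6 and 76.4 CPM in Tgfbr2f/f libraries. Those sums were between 0.00563 and 0.00703% of counts in ECKO libraries and between 0.00434 and 0.0103% in Tgfbr2f/f libraries. The preparations thus carried the labelled endothelial markers at high level and the Kupffer cell markers as a trace, and the summed marker level overlapped between the genotypes.

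No Kupffer cell marker changed between the genotypes at an adjusted p of 0.05. Of the 10 genes, 9 had enough counts to be tested and 0 were called by edgeR's quasi-likelihood test with Benjamini-Hochberg adjustment over all 13692 genes tested, of which 4.03% were called (1.24% higher and 2.79% lower in ECKO). The count was also 0 with DESeq2 and with limma-voom. At an unadjusted p under 0.05, each of the 3 tools had Folr2 on the higher side and Marco on the lower side. Among all genes tested with edgeR, 10.4% were higher and 13.1% lower at that level. The log2 fold changes of ECKO over Tgfbr2f/f ran between -0.87 (Marco) and 1.13 (Folr2), with 5 above 0 and 4 below 0, a side that held 48.6% of all genes tested. Their median was 0.08, beside 0.01 for all genes tested. Scaling by total counts alone moved the median of all genes to -0.22 and that of the markers to -0.18.

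**Figure D1:**
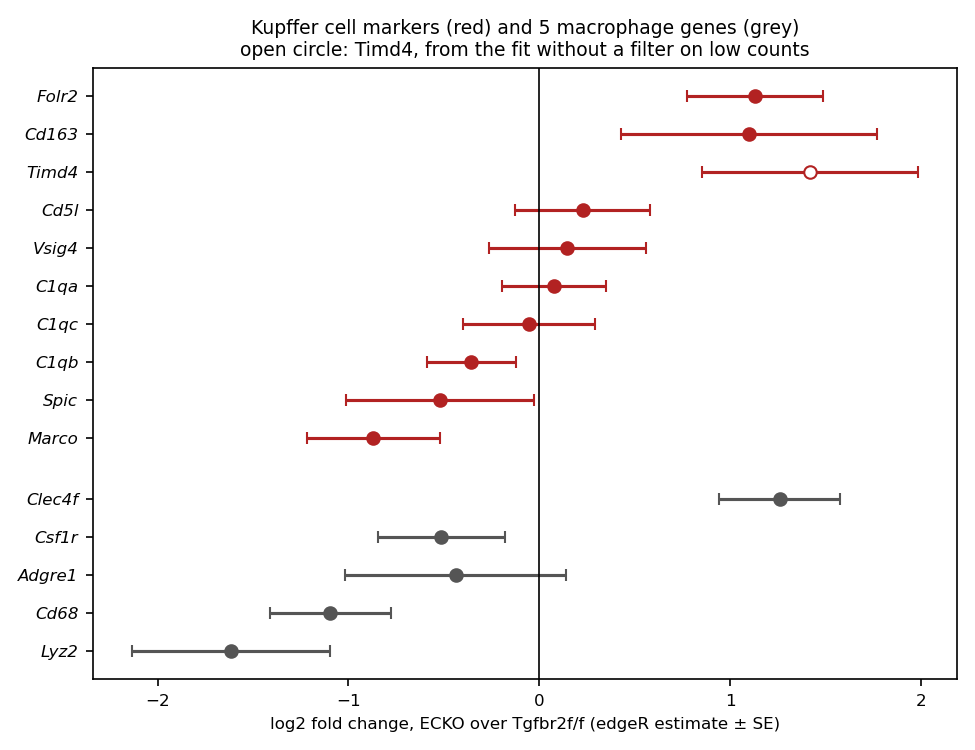
Log2 fold change of ECKO over Tgfbr2f/f (horizontal axis, edgeR estimate with bars of 1 SE) for the Kupffer cell markers in red and 5 macrophage genes in grey, with Timd4 as an open circle from the fit without a filter on low counts. The tested markers lie on both sides of 0, with Folr2 at 1.13 and Marco at -0.87.

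Ranked by FPKM, a unit meant to scale for gene length, the complement chains led. The divisor behind each gene's FPKM was not compared with its length, so the order between genes rests on that divisor. Mean FPKM over the 6 libraries was 25.6 for C1qb and 12.1 for C1qa, followed by 4.74 for C1qc, 4.61 for Cd5l and 1.87 for Vsig4. Folr2 and Marco came next at 1.24 each, then Cd163 at 0.257, Timd4 at 0.250 and Spic at 0.110. Against the mean FPKM of all genes tested, C1qb stood at the 90.0th percentile, C1qa at 79.0 and C1qc at 57.8, whereas Timd4 stood at 6.79 and Spic at 1.88. Several neighbours in this order could not be separated. In ECKO libraries the ranges of C1qc (3.71 to 5.11 FPKM) and Cd5l (3.09 to 5.47 FPKM) overlapped, and so did those of Vsig4 and Folr2 and of Cd163 and Timd4. In Tgfbr2f/f libraries Marco (1.48 to 2.02 FPKM) stood apart from both its neighbours, above Cd163 (0.0803 to 0.375 FPKM) and also above Folr2 (0.592 to 1.26 FPKM), the reverse of the order in ECKO libraries. The ranges of all other neighbours in Tgfbr2f/f libraries overlapped. The remaining neighbours in ECKO libraries did not overlap.

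The 3 chains of C1q, the recognition subunit of the classical complement pathway, are made by tissue macrophages and were the best measured markers. Their genes lie side by side on the minus strand at chr4:136880129-136898803 (mm10/GRCm38), a stretch of 18675 bp with gaps of 3616 bp between C1qb and C1qc and 2851 bp between C1qc and C1qa, and no other gene of the table overlaps them. C1qa had 11.3, 13.3 and 13.5 CPM in ECKO libraries, against 7.69, 17.0 and 11.4 CPM in Tgfbr2f/f libraries. C1qb had 22.0, 23.1 and 25.9 CPM in ECKO libraries, against 19.4, 36.4 and 35.3 CPM in Tgfbr2f/f libraries. C1qc had 9.59, 7.96 and 11.8 CPM in ECKO libraries, against 5.19, 13.6 and 11.7 CPM in Tgfbr2f/f libraries. For all 3 chains the genotypes overlapped, the ECKO libraries spread less than the Tgfbr2f/f libraries, and Tgfbr2f/f replicate 1 was the lowest of the 6 libraries.

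Log2 fold changes were 0.08 for C1qa (SE 0.27, 95% interval -0.55 to 0.71, edgeR adjusted p = 0.882) and -0.05 for C1qc (SE 0.35, interval -0.86 to 0.75, adjusted p = 0.938). C1qb had a log2 fold change of -0.36 (SE 0.23, interval -0.90 to 0.19, adjusted p = 0.390). Without Tgfbr2f/f replicate 1, C1qb alone passed of the 10 markers, Timd4 being tested in that fit, at -0.59 (SE 0.12, adjusted p = 0.0344), and it did so under no other alternative run. C1qb made up 57.0, 56.2 and 56.4% of the summed FPKM of the 3 chains in ECKO libraries, against 64.5, 59.6 and 66.4% in Tgfbr2f/f libraries. The C1qb share was lower in every ECKO library than in every Tgfbr2f/f library. The C1qa share was 30.4, 33.9 and 30.7% in ECKO libraries, against 26.8, 29.1 and 22.5% in Tgfbr2f/f libraries, again without overlap. The C1qc share was 12.6, 9.83 and 12.9% in ECKO libraries, against 8.74, 11.3 and 11.1% in Tgfbr2f/f libraries, and the groups overlapped. The shares were looked at after the values were seen and were not tested.

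Folr2 and Timd4, which are often used together as markers of resident macrophages, and Marco were the genes whose libraries did not overlap between genotypes. Among all genes tested, 30.9% had groups that did not overlap (15.7% with ECKO above and 15.2% with ECKO below). Because Timd4 was below the filter on low counts, 2 of the 9 tested markers separated in this way. The 250 bases before the RefSeq transcript starts of these genes, and of C1qb because it passed when a library was left out, are shown for the 5 starts concerned, from the RefSeq promoter table on build GRCm38.p6. Capitals mark matches on either strand to GAGGAA, the core bound by the macrophage factor PU.1, to TGCTGA, a core recognized by MAF family factors, or to a composite of ETS and IRF cores, GGAA and GAAA with 2 bases of any kind between them. No matches overlapped each other in these windows.
Timd4, chr11:46810549-46810798, plus strand: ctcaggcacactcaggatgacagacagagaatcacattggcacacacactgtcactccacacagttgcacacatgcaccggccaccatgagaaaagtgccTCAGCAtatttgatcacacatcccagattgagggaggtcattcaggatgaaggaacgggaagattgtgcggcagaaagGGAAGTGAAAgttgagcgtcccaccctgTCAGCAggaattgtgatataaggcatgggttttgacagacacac
Folr2, upstream start, chr7:101857191-101857440, minus strand: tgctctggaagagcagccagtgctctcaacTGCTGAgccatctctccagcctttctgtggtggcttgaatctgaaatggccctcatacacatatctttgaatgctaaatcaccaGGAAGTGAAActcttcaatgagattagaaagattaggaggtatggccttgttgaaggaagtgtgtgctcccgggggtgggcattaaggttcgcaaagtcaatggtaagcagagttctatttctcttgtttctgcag
Folr2, start of the deposited gene, chr7:101845332-101845581, minus strand: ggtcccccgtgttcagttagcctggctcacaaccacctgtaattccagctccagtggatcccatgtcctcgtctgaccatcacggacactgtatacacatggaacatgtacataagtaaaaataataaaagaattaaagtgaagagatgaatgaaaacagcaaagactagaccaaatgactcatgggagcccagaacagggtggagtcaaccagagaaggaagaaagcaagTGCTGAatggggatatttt
Marco, chr1:120505025-120505274, minus strand: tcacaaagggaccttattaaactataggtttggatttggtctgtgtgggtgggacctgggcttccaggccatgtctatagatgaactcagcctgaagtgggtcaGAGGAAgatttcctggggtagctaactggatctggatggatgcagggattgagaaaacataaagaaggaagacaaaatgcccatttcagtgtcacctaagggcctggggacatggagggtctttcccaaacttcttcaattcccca
C1qb, chr4:136886201-136886450, minus strand: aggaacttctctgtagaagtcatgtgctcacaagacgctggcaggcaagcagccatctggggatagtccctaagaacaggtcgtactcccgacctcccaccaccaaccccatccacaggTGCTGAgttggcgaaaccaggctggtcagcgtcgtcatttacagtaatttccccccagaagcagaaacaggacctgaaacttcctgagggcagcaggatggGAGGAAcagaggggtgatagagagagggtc

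The letters GGAAGTGAAA stood in the Timd4 window, beginning 72 bases before the start, and in the window of the upstream Folr2 start, beginning 136 bases before it. That Folr2 start lies 11859 bases upstream of the gene as deposited. These were the only members with the composite among the 9 found in the promoter table, which has no C1qa entry. The composite was chosen for the search after these sequences were seen, and 2.3% of all 32851 promoters of the same length hold it. TGCTGA or its reverse complement was found in 5 of the 9 members and in 16.1% of all promoters, and GAGGAA or its reverse complement in 5 of the 9 and in 23.3%. These matches describe the letters in each window and do not show binding.

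Folr2 (ENSMUSG00000032725, chr7:101839990-101845331, minus strand), a folate receptor found on resident macrophages, had 2.33, 1.63 and 1.72 CPM in ECKO libraries, against 0.669, 1.18 and 0.746 CPM in Tgfbr2f/f libraries. In counts these were 35, 28 and 30 in ECKO libraries, against 16, 24 and 18 in Tgfbr2f/f libraries. Every ECKO library was above every Tgfbr2f/f library. The means were 1.89 ± 0.382 CPM in ECKO and 0.865 ± 0.275 CPM in Tgfbr2f/f libraries (SD, n = 3 each). The log2 fold change was 1.13 (SE 0.36, 95% interval 0.30 to 1.96). The edgeR p was 0.0137 before and 0.115 after adjustment, so the difference did not pass.

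Timd4 (ENSMUSG00000055546, chr11:46810800-46844332, plus strand), a receptor for phosphatidylserine on dying cells, had 14, 8 and 19 counts in ECKO libraries, against 8, 7 and 6 counts in Tgfbr2f/f libraries. On the CPM scale these were 0.932, 0.465 and 1.09 in ECKO libraries, against 0.335, 0.344 and 0.249 in Tgfbr2f/f libraries. Again every ECKO library was above every Tgfbr2f/f library, but the lowest ECKO value rested on 8 counts. Pooled over libraries, 41 counts in ECKO against 21 in Tgfbr2f/f gave a ratio of 2.69 after scaling for depth, with an exact 95% interval of 1.55 to 4.79 that covers counting error only. With the filter on low counts dropped, Timd4 had a log2 fold change of 1.418 (SE 0.56) and an edgeR adjusted p of 0.200. Timd4 was also tested with limma on FPKM, on log2(FPKM + 0.1), where its log2 fold change was 0.78. It was tested in edgeR without ECKO replicate 2 (1.70) and without Tgfbr2f/f replicates 1, 2 and 3 in turn (1.48, 1.48 and 1.28). Its adjusted p in these fits ran between 0.118 and 0.336.

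Marco (ENSMUSG00000026390, chr1:120474538-120505024, minus strand), a scavenger receptor for bacteria and particles, ran the other way. It had 1.93, 2.15 and 1.15 CPM in ECKO libraries, against 4.27, 2.70 and 2.57 CPM in Tgfbr2f/f libraries. Every ECKO library was below every Tgfbr2f/f library, with Tgfbr2f/f replicate 1 the highest. The means were 1.74 ± 0.527 CPM in ECKO and 3.18 ± 0.944 CPM in Tgfbr2f/f libraries (SD, n = 3 each). The log2 fold change was -0.87 (SE 0.35, 95% interval -1.67 to -0.06). The edgeR p was 0.0375 before and 0.184 after adjustment. Marco was the only marker highest in Tgfbr2f/f replicate 1, the library in which the C1q chains, Cd5l, Vsig4, Cd163 and Folr2 were lowest of all 6.

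Cd163 (ENSMUSG00000008845, chr6:124304656-124330527, plus strand), the receptor that takes up hemoglobin bound to haptoglobin, had 3.93, 0.930 and 2.69 CPM in ECKO libraries, against 0.585, 2.26 and 0.704 CPM in Tgfbr2f/f libraries. ECKO replicates 1 and 3 were above all Tgfbr2f/f libraries and ECKO replicate 2 was not. The log2 fold change was 1.10 (SE 0.67), and its 95% interval of -0.46 to 2.66 was the widest of the tested markers (edgeR adjusted p = 0.357). Leaving out single libraries moved it between 0.64 (without ECKO replicate 1) and 1.94 (without Tgfbr2f/f replicate 2), with adjusted p between 0.162 and 0.650. Vsig4 (ENSMUSG00000044206, chrX:96247203-96293438, minus strand), the complement receptor that captures C3b-coated particles, had 3.40, 2.03 and 4.99 CPM in ECKO libraries, against 1.84, 4.03 and 3.56 CPM in Tgfbr2f/f libraries. Its groups overlapped, with the lowest and the highest library in different genotypes. It had a log2 fold change of 0.15 (SE 0.41, interval -0.80 to 1.10, edgeR adjusted p = 0.851).

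Cd5l (ENSMUSG00000015854, chr3:87357881-87371073, plus strand), a secreted scavenger protein made by Kupffer cells, had 12.1, 6.27 and 11.9 CPM in ECKO libraries, against 5.06, 11.4 and 9.40 CPM in Tgfbr2f/f libraries. The means were 10.1 ± 3.30 CPM in ECKO and 8.62 ± 3.24 CPM in Tgfbr2f/f libraries (SD, n = 3 each), with overlapping groups. Its log2 fold change was 0.23 (SE 0.35, 95% interval -0.60 to 1.06, edgeR adjusted p = 0.727). Spic (ENSMUSG00000004359, chr10:88674772-88685015, minus strand), a transcription factor known for its part in macrophages that recycle iron, was the weakest marker, with 3, 10 and 9 counts in ECKO libraries and 11, 14 and 18 counts in Tgfbr2f/f libraries. In CPM these were 0.200, 0.581 and 0.516 in ECKO libraries and 0.460, 0.688 and 0.746 in Tgfbr2f/f libraries, and the groups overlapped. The log2 fold change was -0.52 (SE 0.49, interval -1.66 to 0.62, edgeR adjusted p = 0.555), an interval that holds both a fall and a rise.

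**Figure D2:**
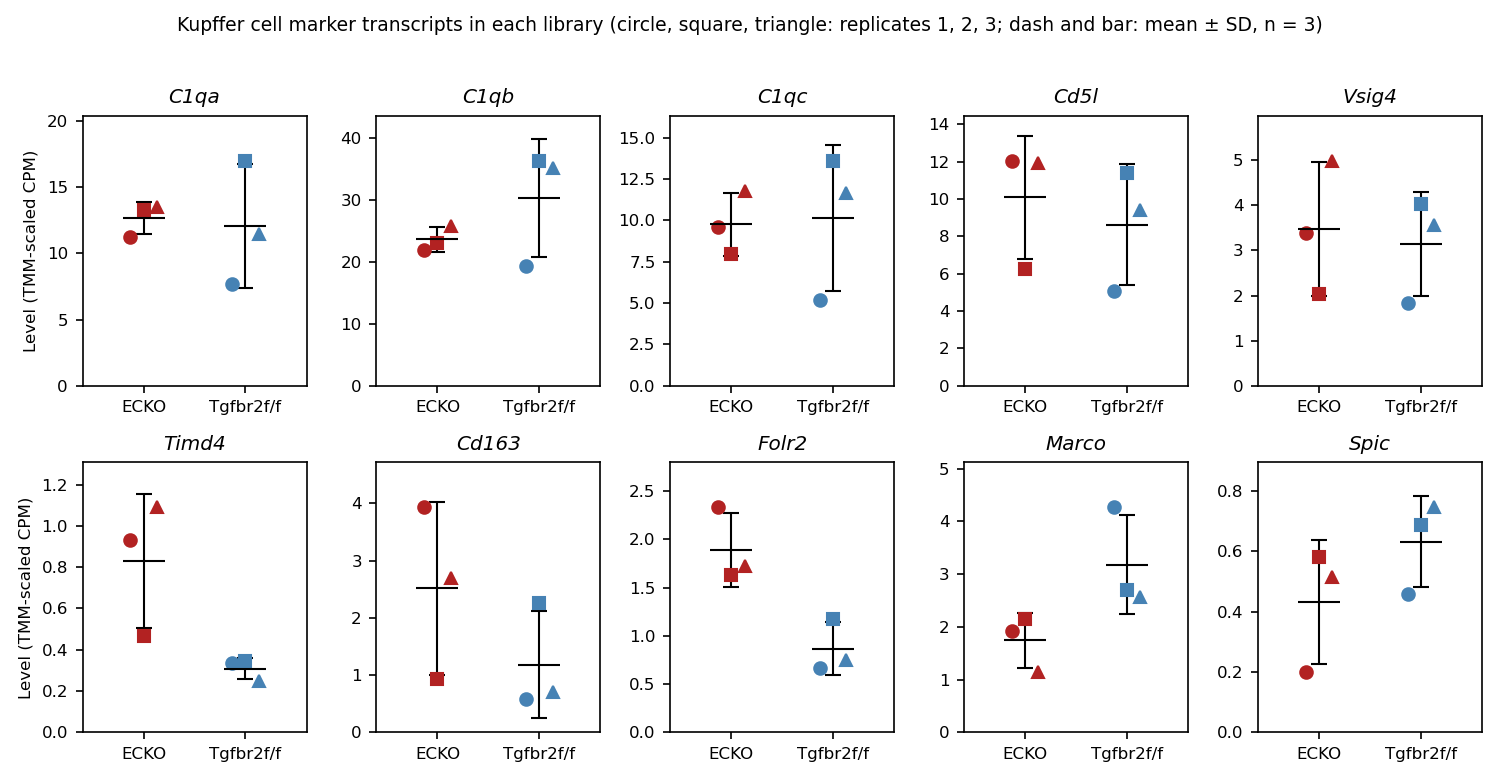
CPM (TMM-scaled) of the 10 Kupffer cell markers in each library, with ECKO left of Tgfbr2f/f in each panel, points for libraries and a dash with bars for the group mean and SD (n = 3). Folr2 and Timd4 have all ECKO points above all Tgfbr2f/f points, Marco has them below, and the groups overlap in the other panels.

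Csf1r, the receptor for the survival factor CSF1, is carried by resident and monocyte-derived macrophages alike. It had 7.12, 4.18 and 7.11 CPM in ECKO libraries, against 5.56, 12.4 and 8.33 CPM in Tgfbr2f/f libraries (log2 fold change -0.51, SE 0.33, edgeR adjusted p = 0.386). Dividing each marker's CPM by that of Csf1r in the same library gave values that separated the genotypes for more of the markers. The scale was chosen after the values were seen, all the ratios share that denominator, and none was tested. Every ECKO library was above every Tgfbr2f/f library for 6 of the 10 markers, Vsig4, Timd4, Cd5l, C1qa, Cd163 and Folr2. Of the 9 tested markers 5 did so, beside 10.3% of the 13691 tested genes other than Csf1r.

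Cd5l per Csf1r was 1.69, 1.5 and 1.68 in ECKO libraries, against 0.910, 0.917 and 1.13 in Tgfbr2f/f libraries. Vsig4 per Csf1r was 0.477, 0.486 and 0.702 in ECKO libraries, against 0.331, 0.324 and 0.428 in Tgfbr2f/f libraries. Folr2 per Csf1r was 0.327, 0.389 and 0.242 in ECKO libraries, against 0.120, 0.0949 and 0.0896 in Tgfbr2f/f libraries. These ratios were closer together within a genotype than the CPM values for Cd5l, whose dips in ECKO replicate 2 and Tgfbr2f/f replicate 1 were shared by Csf1r. C1qb, C1qc and Spic overlapped on this scale as they did in CPM. Marco, whose groups did not overlap in CPM, overlapped on this scale. Marco per Csf1r was 0.271, 0.514 and 0.161 in ECKO libraries, against 0.767, 0.217 and 0.308 in Tgfbr2f/f libraries. The 10 markers summed were 9.50, 14.0 and 10.6 times Csf1r in ECKO libraries and 8.17, 7.21 and 9.17 times Csf1r in Tgfbr2f/f libraries. With the sum of 25 general macrophage and leukocyte genes as the denominator, the genotypes overlapped. That ratio was 0.173, 0.155 and 0.298 in ECKO libraries, against 0.102, 0.220 and 0.162 in Tgfbr2f/f libraries. The separation on the Csf1r scale thus depended on the denominator.

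**Figure D3:**
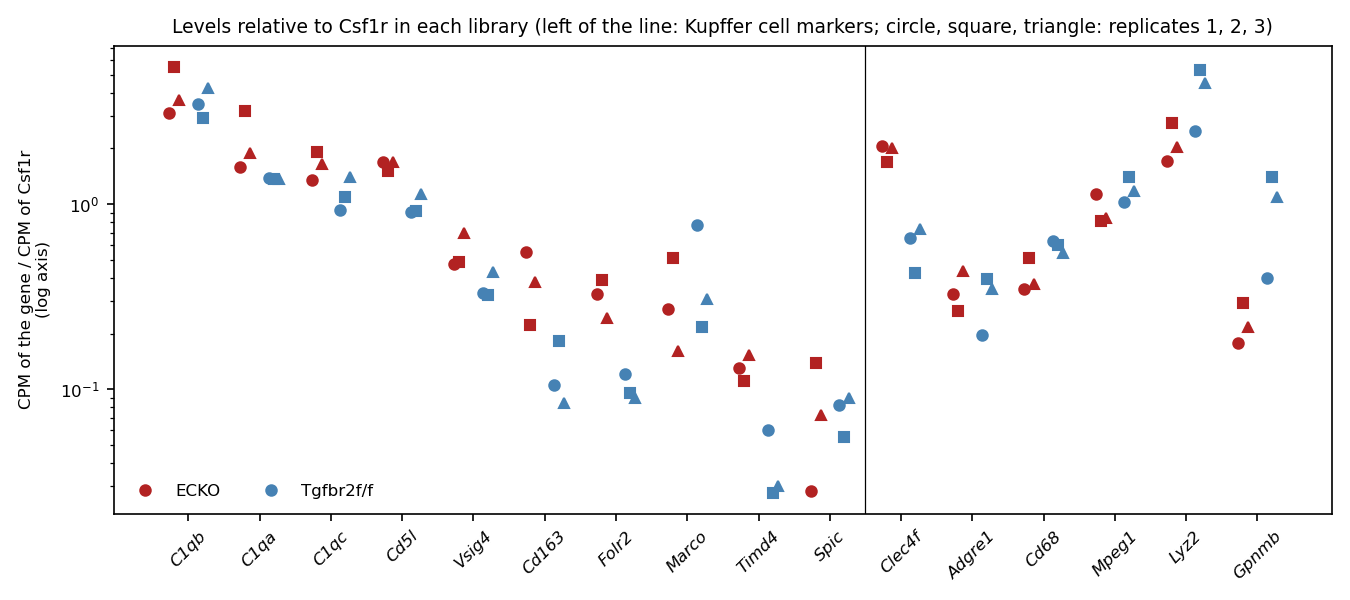
CPM of each gene divided by CPM of Csf1r in the same library (log axis), ECKO left of Tgfbr2f/f, with a point per library, for the Kupffer cell markers left of the line and 6 other macrophage genes right of it. Vsig4, Timd4, Cd5l, C1qa, Cd163 and Folr2 have all ECKO points above all Tgfbr2f/f points, and the other markers overlap.

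Clec4f, a galactose-binding lectin regarded as specific to Kupffer cells in mice, had 14.6, 7.09 and 14.3 CPM in ECKO libraries, against 3.64, 5.31 and 6.09 CPM in Tgfbr2f/f libraries. Its means were 12.0 ± 4.26 CPM in ECKO and 5.01 ± 1.25 CPM in Tgfbr2f/f libraries (SD, n = 3 each), and every ECKO library was above every Tgfbr2f/f library. The log2 fold change of 1.26 (SE 0.32) had an edgeR adjusted p of 0.0711, which missed the threshold. It passed with DESeq2 (adjusted p = 0.00475), with no filter on low counts (0.0486) and without ECKO replicate 2 (0.0418). Among 15 other genes known from Kupffer cells, 14 were tested, 1 rose, none fell and the median log2 fold change was 0.18. The median of the 18 LSEC markers was 0.12. Most of the RNA on the Kupffer cell list came from Cdh5, which LSECs also express. Cdh5 had 1605, 1406 and 1680 CPM in ECKO libraries, against 1457, 1429 and 1503 CPM in Tgfbr2f/f libraries. The gene that rose, Clec1b, is also made by LSECs. It had 267, 246 and 305 CPM in ECKO libraries and 188, 192 and 160 CPM in Tgfbr2f/f libraries (log2 fold change 0.60, edgeR adjusted p = 0.0414). Under total count scaling and with limma on FPKM the Clec1b value was 0.36 (adjusted p of 0.175 and 0.219), and the call was also lost with limma-voom (0.0509) and with the replicate number as a block (0.0742). Clec1b missed the threshold when ECKO replicate 1, 2 or 3 was left out (adjusted p of 0.116, 0.0556 and 0.125), and when Tgfbr2f/f replicate 2 or 3 was (0.0773 and 0.154).

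None of the 15 transcription factors known from Kupffer cells changed in edgeR's test at an adjusted p of 0.05. At an unadjusted p under 0.05 there was 1 on each side, while DESeq2 called 1 lower. The 15 had a median log2 fold change of -0.09. Nr1h3, which encodes LXR alpha and is needed for Kupffer cell identity in mice, had 8.92, 8.83 and 8.54 CPM in ECKO libraries, against 7.03, 8.20 and 7.25 CPM in Tgfbr2f/f libraries. Its ECKO libraries were all above the Tgfbr2f/f libraries by a small margin (log2 fold change 0.23, SE 0.15, edgeR adjusted p = 0.391). Most of the RNA on this list came from genes that LSECs also express at high level, such as Maf, with 1061, 1029 and 1138 CPM in ECKO libraries and 1049, 932 and 875 CPM in Tgfbr2f/f libraries.

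Genes shared by macrophages and other leukocytes lay mostly on the lower side. Of 25 such genes 22 were tested, 19 had a log2 fold change below 0, 1 fell and none rose, with a median of -0.80. Their sum was 253 to 392 CPM in ECKO libraries and 407 to 471 CPM in Tgfbr2f/f libraries. The gene that fell, Lcp1, encodes the actin-bundling protein L-plastin of leukocytes. It had 45.1, 38.7 and 35.0 CPM in ECKO libraries, against 77.9, 68.4 and 67.6 CPM in Tgfbr2f/f libraries (log2 fold change -0.85, SE 0.12, edgeR adjusted p = 0.0163). Lcp1 missed the threshold without ECKO replicate 1, 2 or 3 (0.0509, 0.0517 and 0.0691) and without Tgfbr2f/f replicate 3 (0.0651), and without Tgfbr2f/f replicate 1 the count of genes that fell was 7. DESeq2 called 5 of these genes lower. Adgre1, which encodes the macrophage marker F4/80, had 2.33, 1.10 and 3.10 CPM in ECKO libraries, against 1.09, 4.91 and 2.90 CPM in Tgfbr2f/f libraries. Cd68, a lysosomal marker of macrophages, had 2.46, 2.15 and 2.64 CPM in ECKO libraries, against 3.51, 7.47 and 4.56 CPM in Tgfbr2f/f libraries, with no overlap (log2 fold change -1.09, SE 0.32, edgeR adjusted p = 0.0978).

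Markers of monocyte-derived and scar-associated macrophages had the lowest median of the macrophage lists, -1.73 over 15 tested of 18, beside 0.08 for the Kupffer cell markers. In 13 of the 18 every ECKO library was below every Tgfbr2f/f library, beside 15.2% of all genes tested. The 18 include 3 that were not tested. The 18 summed to 592 to 710 CPM in ECKO libraries and 722 to 1350 CPM in Tgfbr2f/f libraries. Little of that sum came from Trem2 and Mmp12, which averaged 1.76 and 2.64 CPM in Tgfbr2f/f libraries. Only Fn1, the fibronectin gene, which endothelial and stellate cells also express, passed the test. It had 48.4, 29.1 and 55.0 CPM in ECKO libraries and 174, 321 and 240 CPM in Tgfbr2f/f libraries (log2 fold change -2.47, SE 0.31, edgeR adjusted p = 0.0141). Without ECKO replicate 1 it missed (0.0686), as it did with the replicate number as a block (0.0551), and without Tgfbr2f/f replicate 1 the count that fell was 7. DESeq2 called 9 lower. Trem2, a lipid receptor of scar-associated macrophages, had 4, 0 and 1 counts in ECKO libraries, against 16, 56 and 45 in Tgfbr2f/f libraries. The pooled Trem2 ratio was 0.0589 with a 95% counting interval of 0.0188 to 0.141, and its edgeR adjusted p was 0.0529. Mmp12, a macrophage elastase, had 0, 4 and 0 counts in ECKO libraries and 19, 97 and 57 in Tgfbr2f/f libraries (adjusted p = 0.0535). Tgfbr2f/f replicate 1 was the lowest Tgfbr2f/f library for Trem2 and Mmp12, as it was for the C1q chains, Cd5l, Vsig4, Cd163 and Folr2. How far a change in the mix of macrophages enters the values of the Kupffer cell markers was not tested.

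**Figure D4:**
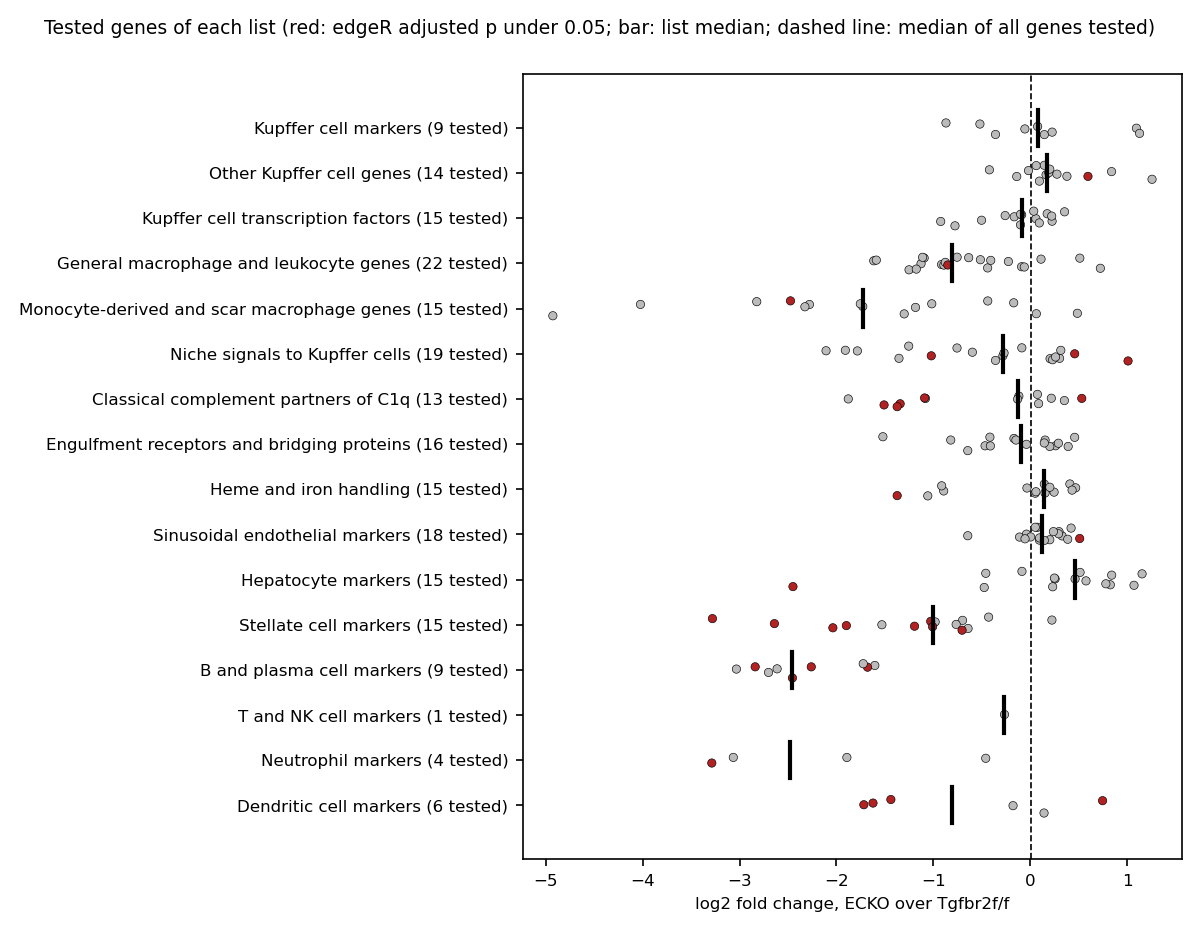
Log2 fold change of ECKO over Tgfbr2f/f for the tested genes of each list (points, red where the edgeR adjusted p was under 0.05), with a bar at the list's median and a dashed line at the median of all genes tested. The Kupffer cell markers have a median of 0.08, general macrophage genes -0.80 and monocyte-derived and scar macrophage genes -1.73.

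The C1q chains act through other proteins, several of which did change. Of 15 partners and regulators of the classical pathway 13 were tested, 4 fell, 1 rose and the median log2 fold change was -0.13. Serping1, which encodes the C1 inhibitor that removes the C1r and C1s proteases from C1q, had 44.2, 57.8 and 51.1 CPM in ECKO libraries, against 129, 153 and 153 CPM in Tgfbr2f/f libraries. Its log2 fold change was -1.51 (SE 0.13, edgeR adjusted p = 0.00853), and it passed under every alternative run. Lrp1, an endocytic receptor that also takes up hemopexin with heme, had 48.3, 41.4 and 53.8 CPM in ECKO libraries, against 113, 131 and 127 CPM in Tgfbr2f/f libraries. Its log2 fold change was -1.37 (SE 0.12, edgeR adjusted p = 0.00853), and it too passed under every alternative. C4b and C2, whose products form the C3 convertase below C1, had log2 fold changes of -1.34 (adjusted p = 0.0256) and -1.09 (adjusted p = 0.0306). The number that fell was 2 without ECKO replicate 1, ECKO replicate 3 or Tgfbr2f/f replicate 3. C2 also missed the threshold without ECKO replicate 2 (edgeR adjusted p = 0.0556), and C4b without Tgfbr2f/f replicate 2 (0.0625). The gene that rose, Cd59a, an inhibitor of the membrane attack complex named here after its value was seen, did so by 0.53 on the log2 scale (adjusted p = 0.0486) and missed the threshold whichever library was left out, as well as under total count scaling, with limma-voom, with limma on FPKM and with the replicate block. These partner genes are made by hepatocytes, stellate or endothelial cells as well as by macrophages.

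Receptors and bridging proteins for engulfing dying cells, the process in which Timd4 takes part, gave 0 calls among 16 tested with edgeR and a median log2 fold change of -0.09. At an unadjusted p under 0.05, 2 were higher and 5 lower, DESeq2 called 1 higher and 2 lower, and without Tgfbr2f/f replicate 1 edgeR called 2 lower. Under total count scaling Elmo1 and Cd36 were called lower (edgeR adjusted p of 0.0265 and 0.0108). Cd36 was also called lower with no filter on low counts (edgeR adjusted p = 0.0331) and with limma on FPKM (adjusted p = 0.0368). Gas6, the bridge between phosphatidylserine and the receptors Mertk and Axl, had 496, 622 and 468 CPM in ECKO libraries, against 392, 406 and 355 CPM in Tgfbr2f/f libraries (log2 fold change 0.46, edgeR adjusted p = 0.0946). Among 15 genes of heme and iron handling, the process in which Cd163 and Spic take part, Lrp1 was the sole gene called and the median log2 fold change was 0.15. Without Tgfbr2f/f replicate 1 or 2 the count was 2. Cp, of the same list, missed the threshold in the main fit (log2 fold change -1.06, edgeR adjusted p = 0.0529). It was called lower with DESeq2 (adjusted p = 0.0004). With edgeR it was also called lower under total count scaling (0.0291) and with the replicate number as a block (0.0485).

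Genes listed as signals to Kupffer cells from their surroundings were measured in the same libraries, and 19 of 20 were tested, with a median log2 fold change of -0.28. The list does not show that each of them holds Kupffer cells in place. The endothelial factor gene Bmp6 rose (229, 220 and 227 CPM in ECKO libraries, against 173, 166 and 153 CPM in Tgfbr2f/f libraries; log2 fold change 0.46, edgeR adjusted p = 0.0396). So did Selp, encoding the adhesion molecule P-selectin (85.9, 118 and 117 CPM in ECKO libraries, against 43.4, 50.2 and 65.4 CPM in Tgfbr2f/f libraries; log2 fold change 1.01, edgeR adjusted p = 0.0314). Cxcl12, a chemokine gene, fell (107, 66.6 and 112 CPM in ECKO libraries, against 201, 184 and 193 CPM in Tgfbr2f/f libraries; log2 fold change -1.02, edgeR adjusted p = 0.0329). Under total count scaling and with limma on FPKM, Bmp6 had a log2 fold change of 0.22 (adjusted p of 0.371 and 0.400) and Selp of 0.77 (0.0883 and 0.122), so neither call held, and with the replicate number as a block Bmp6 missed (0.0655). The number that rose was 0 when any ECKO replicate or Tgfbr2f/f replicate 2 was left out, 1 without Tgfbr2f/f replicate 3 and 3 without Tgfbr2f/f replicate 1. Cxcl12 missed the threshold without ECKO replicate 1 or 3 (0.0990 and 0.0717) and without Tgfbr2f/f replicate 2 or 3 (0.0686 and 0.115). Csf1, the gene for the ligand of Csf1r, had 182, 257 and 229 CPM in ECKO libraries, against 467, 177 and 168 CPM in Tgfbr2f/f libraries. Its highest value was in Tgfbr2f/f replicate 1, the library in which Marco was highest and most of the other markers were lowest.

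The 15 stellate cell markers summed to 998 to 1392 CPM in ECKO libraries and 1984 to 3092 CPM in Tgfbr2f/f libraries, and 8 of them fell (1 to 10 when single libraries were left out, lowest without ECKO replicate 1), with a median log2 fold change of -1.01. B and plasma cell markers summed to 9.18 to 16.8 CPM in ECKO libraries and 27.3 to 60.6 CPM in Tgfbr2f/f libraries, with Mzb1 at 0 in all ECKO libraries. Of these, 9 were tested and 4 fell, but the count was 10 without Tgfbr2f/f replicate 1 and 0 when any other library was left out, with limma-voom or with the replicate block. Neutrophil markers summed to 1.57 to 6.06 CPM in ECKO libraries and 14.8 to 26.9 CPM in Tgfbr2f/f libraries, with Ly6g at 0 in all 6 libraries. Of these, 4 were tested and 1, Mpo, fell (log2 fold change -3.29, edgeR adjusted p = 0.0375). The call was lost when any library other than Tgfbr2f/f replicate 1 was left out, with no filter on low counts, with limma-voom and with the replicate block. Most of the sum in Tgfbr2f/f libraries was Mpo, at 12.9, 18.2 and 8.33 CPM. S100a9 and Elane were also lower without overlap but were not called. Csf3r overlapped (log2 fold change -0.46, edgeR adjusted p = 0.701). Hepatocyte markers overlapped in sum, at 1110.5 to 2110.5 CPM in ECKO libraries and 1081 to 1956 CPM in Tgfbr2f/f libraries. All 15 were tested, with a median log2 fold change of 0.46, none rose and 1, Cyp3a11, fell. It had 1.86, 3.72 and 1.72 CPM in ECKO libraries, against 14.0, 12.3 and 13.7 CPM in Tgfbr2f/f libraries. Its log2 fold change was -2.45 (edgeR adjusted p = 0.00963), and it missed the threshold without ECKO replicate 1 (0.0589). T and NK cell markers summed to 2.85 to 5.53 CPM in ECKO libraries and 2.43 to 5.21 CPM in Tgfbr2f/f libraries. The part of these differences in the values of the Kupffer cell markers was not tested.

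Across libraries the tested markers varied together only in part. Their mean profile, as log2 CPM centred on each gene's mean over the 6 libraries, was 0.13, -0.17 and 0.21 in ECKO libraries and -0.52, 0.37 and -0.01 in Tgfbr2f/f libraries. C1qa lay nearest to that profile, with a root mean square distance of 0.18, and Marco and Cd163 farthest, at 0.76 each. Outside the set, the 5 tested genes nearest to the mean profile over the 6 libraries were Ccdc181 (0.07), Rap2b (0.08), Gm20507, Xlr and Adat2 (0.09 each). With 6 libraries and a profile set mainly by Tgfbr2f/f replicate 1, this order is a description of these libraries.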

How the data were processed

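Messenger RNA was sequenced in 6 libraries, 3 labelled ECKO and 3 from the Tgfbr2f/f controls. The titles of the control libraries read WT. RNA integrity was checked, and RNA was cleaned, treated with DNase and reduced to mRNA, per the labels' protocols. Per the submitters' processing notes, HISAT2 2.0.4, StringTie 1.3.0, mm10 and GRCm38.p4 were named with no role given. The sources used here do not give the counter, the annotation release, the filters or the strand setting, and without the last of these reads from antisense partners cannot be told apart.

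The deposited table holds whole-number counts per gene, per the file headers, and FPKM values that the authors made. Count divided by FPKM and by library total was compared between 2 libraries, for 7827 genes with over 200 counts. It differed by a relative 3.43e-06 at most, so each gene had the same divisor in both. That divisor was not compared with gene length. No column of per-sample values was left unused (0). Coordinates are those of the deposited table, and 34267 identifiers (98.6%) matched a reference table.

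The filter was edgeR's filterByExpr at a minimum count of 10 and a minimum total of 15, leaving 13692 of 34745, of which 14663 had no counts in any library. Libraries were scaled by TMM. The groups were compared by edgeR 4.0.16 in R 4.3.3 (quasi-likelihood F-test, robust, genotype only, two-sided, Benjamini-Hochberg, threshold 0.05). Each fold change is ECKO over Tgfbr2f/f on the log2 scale, and SE is the fold change over the square root of F. A count of 0 allows up to 3 counts, 0.172 to 0.200 CPM in ECKO and 0.124 to 0.147 CPM in Tgfbr2f/f libraries. Counting intervals (95%, exact conditional binomial) cover counting error only. No library repeated another. The scripts were tested on simulated data.

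The markers, the 15 other gene lists and the comparisons were chosen with earlier results of these data known. Genes named were the 10 markers, Tgfbr2, 5 Kupffer and macrophage genes, up to 4 tested genes per list with the smallest p, and the 5 nearest in profile (root mean square distance, prior count 2), 74 in all. Csf1, Cd59a and Mzb1 were named after their values were seen. Alternatives were DESeq2 1.42.0, limma-voom (limma 3.58.1), limma on log2(FPKM + 0.1) for genes with a mean FPKM of at least 0.1, total count scaling, no filter, the replicate number as a block, and each library left out. No set test was run.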

Additional observations from a re-analysis of the deposited data

How the results depend on the processing

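Over all genes, 170 rose and 382 fell with edgeR. DESeq2 called 470 and 1038, total count scaling 63 and 1209, limma on FPKM 46 and 544, and limma-voom 116 and 191. Leaving out single libraries gave 14 to 246 higher and 21 to 766 lower. For the Kupffer cell markers, leaving out single libraries gave 0 higher and 0 to 1 lower (C1qb, without Tgfbr2f/f replicate 1), and the other alternatives gave 0. The labels do not say whether the replicate numbers pair the libraries. Deviations from group means had correlations of 0.09, 0.15 and -0.05 between same-numbered libraries. Between differently numbered libraries they ran from -0.15 to 0.09. With 3 libraries a side, these values cannot settle whether the libraries were paired. With the replicate number as a block, 131 genes rose and 285 fell, and no marker was called. Signs depended on scaling where fold changes were small. Under total count scaling, log2 fold changes turned to -0.14 for Vsig4, -0.067 for Cd5l, -0.18 for C1qa, -0.025 for Tgfbr2, -0.017 for Rxra and Nr1h3, -0.043 for Cd38, -0.055 for Maf, -0.15 for Ccdc181, -0.22 for Rap2b, -0.19 for Gm20507, -0.20 for Xlr and -0.25 for Adat2. With limma on FPKM they were -0.11 for Vsig4, -0.093 for C1qa, -0.010 for Tgfbr2, -0.0080 for Nr1h3, -0.033 for Cd38, -0.015 for Rxra, -0.058 for Maf, -0.10 for Ccdc181, -0.15 for Rap2b and Xlr, -0.11 for Gm20507 and -0.20 for Adat2. C1qc turned to 0.064 with limma-voom and 0.028 with the block, and Adat2 to -0.0065 with DESeq2. Without single libraries, values ran from -0.21 to 0.43 for Vsig4, -0.037 to 0.49 for Cd5l, -0.15 to 0.40 for C1qa, -0.36 to 0.21 for C1qc, -0.83 to 0.12 for Adgre1, -1.06 to 0.28 for Nkg7, -1.003 to 0.026 for Csf3r, -0.049 to 0.29 for Ccdc181, -0.14 to 0.22 for Rap2b, -0.15 to 0.25 for Gm20507, -0.075 to 0.26 for Xlr and -0.18 to 0.23 for Adat2. The cause was not tested. Of the alternatives for the named genes, 662 kept direction and side of the threshold, 110 lost the call, 57 gained it and 47 changed sign. Depth limits Timd4 and Spic most, at 3 to 19 counts per library.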

Other observations

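Of 11 markers of dendritic cells, another set of antigen-handling cells in the sinusoids, 6 were tested, 3 fell and 1 rose. Flt3, Xcr1, Cd209a, Siglech and Batf3 had too few counts to be tested. Genes for class II antigen presentation fell, with H2-Aa at 6.99, 4.53 and 5.10 CPM in ECKO libraries, against 19.5, 19.5 and 15.6 CPM in Tgfbr2f/f libraries (log2 fold change -1.72, SE 0.20, edgeR adjusted p = 0.00938). Cd74, the chaperone of class II molecules, had 22.4, 15.3 and 15.3 CPM in ECKO libraries, against 41.9, 68.0 and 53.0 CPM in Tgfbr2f/f libraries (log2 fold change -1.62, edgeR adjusted p = 0.0153). Clec9a, a receptor for dead cells, had 29.2, 24.4 and 28.3 CPM in ECKO libraries, against 18.3, 15.7 and 14.7 CPM in Tgfbr2f/f libraries (log2 fold change 0.75, edgeR adjusted p = 0.0307). Clec9a (chr6:129408862-129424763, plus strand) overlaps the end of Clec1b (chr6:129397297-129409335, plus strand). Clec1b stood higher, at 246 to 305 CPM in ECKO libraries and 160 to 192 CPM in Tgfbr2f/f libraries. Whether Clec1b reads were counted for Clec9a was not tested. H2-Aa passed whichever library was left out. Cd74 missed the threshold without ECKO replicate 2 or 3 (adjusted p of 0.0594 and 0.0668) or Tgfbr2f/f replicate 3 (0.0577), and Clec9a without ECKO replicate 1 or 3 (0.106 and 0.0964) or Tgfbr2f/f replicate 2 or 3 (0.0775 and 0.115). The Clec9a call was also lost under total count scaling (log2 fold change 0.51, adjusted p = 0.0768) and with limma on FPKM (0.50, adjusted p = 0.0705). B cells and macrophages also carry class II genes, and their part was not tested.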
